A study of Mus musculus with 16 samples.

Results

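The imprinted genes Igf2, H19, Cdkn1c, Phlda2, Igf2r, Mest, Peg3, Meg3, Grb10 and Plagl1, which act on growth, were followed through a short pulse of ERK signalling in mouse pluripotent cells. They are 10 of the 52636 features in the table of read counts, matched by Ensembl identifier, and all 10 were among the 12742 genes with enough counts to be tested. The list was selected with some of these data in view, and which values chose each gene is not stated in full. Igf2 and Cdkn1c are taken here as chosen by their values at 4h against 2h and at rev against 4h, so those comparisons are given for every gene as a description with no test, and Igf2 and Cdkn1c have no test in any comparison between times. The other 8 genes were tested in the other comparisons between times, and all 10 were tested for differences between clones. The clone differences in rev minus 4h use values that were in view at the choice, so their p-values may not be independent of it. Whether values of H19 also entered the choice is not known, so its p-values between times may not be independent of the choice.

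The cells, labelled RSC, were derived from embryonic stem cells carrying a c-RAF kinase construct that 4-hydroxytamoxifen (4OHT) switches on, which activates MEK and ERK. All groups carried the construct and spent 48 h in 250 nM of the FGF receptor inhibitor PD17 (PD173074), which replaced the MEK inhibitor of routine culture (PD03, beside the Wnt secretion inhibitor IWP2 and LIF). The 0h group received nothing further, the 2h and 4h groups received 250 nM 4OHT for 2 or 4 h, and the rev group received 4OHT for 4 h and a MEK inhibitor for 2 h. Each group holds 4 libraries, 2 from clone 4 and 2 from clone 8, so the study has 16 libraries of ribosomal RNA-depleted total RNA. The labels do not say that libraries of a clone came from separate cultures, so the p-values measure the spread between these libraries, which may be technical. In comparisons between times, that spread also holds any difference between the clones in how they changed. A group kept in 4OHT alone for as long as rev was not analysed here, so time after 4OHT and the MEK inhibitor cannot be told apart in rev. The labels do not state the dose of that inhibitor.

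In genomic imprinting a gene is read mainly from the copy inherited from the mother or from the father, under control of DNA methylation laid down in the germ line. Igf2 encodes a fetal growth factor and H19 a long noncoding RNA beside it, and a shared imprinting control region bound by CTCF steers common enhancers to H19 on the maternal copy and to Igf2 on the paternal copy. Paternally read genes such as Igf2, Mest, Peg3 and Plagl1 tend to promote growth, and maternally read genes such as H19, Cdkn1c, Phlda2, Igf2r and, in most tissues, Grb10 tend to restrain it. The counts here do not separate the parental copies, so they say nothing on imprinting itself.

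Promoter sequence from RefSeq (build GRCm38.p6) was at hand for 8 of the 10 genes, in 15 windows of 300 bases that run from 250 bases before to 50 after an annotated start. No window was at hand for H19 or Cdkn1c, so the counts of matches below do not cover them. The 250 bases before the start are shown for those of the 8 genes whose levels differed most between groups, and for Igf2r. They run 5′ to 3′ in lower case, with capitals for matches to the letters CACGTG or TGCCGC on either strand.
Igf2, most downstream start (chr7:142657497-142657746, minus strand): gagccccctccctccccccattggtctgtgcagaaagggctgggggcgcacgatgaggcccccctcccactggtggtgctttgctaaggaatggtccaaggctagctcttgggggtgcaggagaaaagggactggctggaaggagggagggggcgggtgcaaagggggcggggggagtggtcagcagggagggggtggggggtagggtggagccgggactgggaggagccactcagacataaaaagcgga
Igf2, next start upstream (chr7:142658805-142659054, minus strand): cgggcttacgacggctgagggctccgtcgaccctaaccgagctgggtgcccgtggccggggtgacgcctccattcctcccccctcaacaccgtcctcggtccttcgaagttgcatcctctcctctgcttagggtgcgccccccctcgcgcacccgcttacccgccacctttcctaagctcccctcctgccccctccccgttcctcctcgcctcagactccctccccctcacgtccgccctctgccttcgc
Phlda2 (chr7:143502525-143502774, minus strand): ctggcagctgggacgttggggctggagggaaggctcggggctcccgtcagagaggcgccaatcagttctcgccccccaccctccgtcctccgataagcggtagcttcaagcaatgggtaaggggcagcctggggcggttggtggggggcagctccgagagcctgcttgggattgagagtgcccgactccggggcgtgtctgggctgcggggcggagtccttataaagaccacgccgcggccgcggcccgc
Mest (chr6:30737803-30738052, plus strand): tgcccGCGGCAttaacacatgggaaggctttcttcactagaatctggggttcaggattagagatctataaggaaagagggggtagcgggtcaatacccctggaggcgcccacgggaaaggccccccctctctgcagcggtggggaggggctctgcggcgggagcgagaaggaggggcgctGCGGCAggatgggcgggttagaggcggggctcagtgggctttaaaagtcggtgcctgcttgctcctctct
Meg3 (chr12:109540746-109540995, plus strand): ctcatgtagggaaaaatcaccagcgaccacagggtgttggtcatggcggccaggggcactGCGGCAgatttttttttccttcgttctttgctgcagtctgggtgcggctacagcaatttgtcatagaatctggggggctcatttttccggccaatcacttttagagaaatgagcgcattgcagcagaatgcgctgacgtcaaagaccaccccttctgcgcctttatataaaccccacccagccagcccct
Igf2r (chr17:12769707-12769956, minus strand): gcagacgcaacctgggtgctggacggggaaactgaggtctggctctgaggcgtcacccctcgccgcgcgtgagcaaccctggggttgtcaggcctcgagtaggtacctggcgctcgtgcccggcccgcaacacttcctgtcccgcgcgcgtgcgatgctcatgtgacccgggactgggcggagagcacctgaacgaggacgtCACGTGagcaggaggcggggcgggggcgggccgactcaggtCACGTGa
The AP-1 letters TGANTCA, found in 7.81% of 32851 promoter windows, were in 0 of the 15 windows on either strand. The EGR letters GCGTGGGCG (0.612% of all windows) and the ETS letters CCGGAAGT (3.89%) were also in 0 of 15, as was the Plagl1 motif (0.0852%). The E-box CACGTG (7.15%) was in 2 windows, those of Igf2r and Plagl1, and Igf2r held it at 48 and 7 bases before its start. TGCCGC, the letters that ZFP57 reads when methylated, stood in 6 windows of 5 genes (Igf2, Mest, Meg3, Grb10 and Plagl1) and in 11.6% of all windows. The Mest windows with these letters overlap almost fully and hold the same sites, so those sites are counted more than once. A match or its lack describes these letters in these windows. The windows ranged from 1 CG at the inner Meg3 start to 45 at a Grb10 start, against a median of 7 over all windows.

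H19 also carries a microRNA hairpin in an exon. The mature forms are shown because they are the processed products of H19, the one of the 10 genes that differed most between the clones, with the seed, bases 2 to 8, in capitals.
mmu-miR-675-5p (chr7:142577112-142577133, minus strand): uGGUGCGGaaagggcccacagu
mmu-miR-675-3p (chr7:142577078-142577099, minus strand): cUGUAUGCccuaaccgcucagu
Mir675, the hairpin's own feature, held 0 counts in all 16 libraries.

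Library totals ran from 4.31 to 10.44 M (mega) counts, of which 8 very abundant features took 46.7% to 78.9%. That left 1.30 to 5.46 M, and 3 counts corresponded to 0.210 to 0.908 CPM (counts per mega-count of the library, scaled with TMM factors). The shallowest library outside those features was rev clone 8 replicate 1. The 6 pluripotency markers summed to between 825 and 1506 CPM, while mesoderm markers (at most 3.87 CPM in sum) and fibroblast markers (at most 3.60) held no testable gene. Egr1, Dusp6 and Spry4, genes that ERK induces directly, rose at 2h and 4h and not at rev against 0h. Egr1 averaged 2.47 CPM at 0h, 515 at 2h, 259 at 4h and 5.80 at rev in clone 4, and 1.73, 174, 30.6 and 3.16 in clone 8.

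Levels can be compared between genes only per length, as CPM per kilobase of annotated exon (GENCODE M21). On that scale the place of H19 depended on the clone. In clone 4 it was the highest of the 10 in each group, with means of 15.9 at 0h, 43.2 at 2h, 18.5 at 4h and 37.8 at rev. In clone 8 its means were 0.365, 1.99, 0.514 and 2.08, the lowest but Igf2 at 0h and 4h, and Igf2r was highest in each group (6.16 to 7.79). Over both clones the mean of H19 was 15.04 ± 16.8 (SD, n = 16 libraries). Igf2r (7.95 ± 1.76), Peg3 (7.36 ± 4.97), Mest (6.49 ± 4.19) and Phlda2 (5.60 ± 5.23) followed. Plagl1 (3.13 ± 0.80), Cdkn1c (2.49 ± 2.06), Igf2 (2.31 ± 2.96), Meg3 (1.78 ± 1.37) and Grb10 (1.72 ± 0.55) were lower. No neighbours in this order differed by more than the larger of their SDs, which span both clones. Among tested genes, H19 stood at percentile 90.2 of this level and Grb10 at percentile 39.1.

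**Figure D1:**
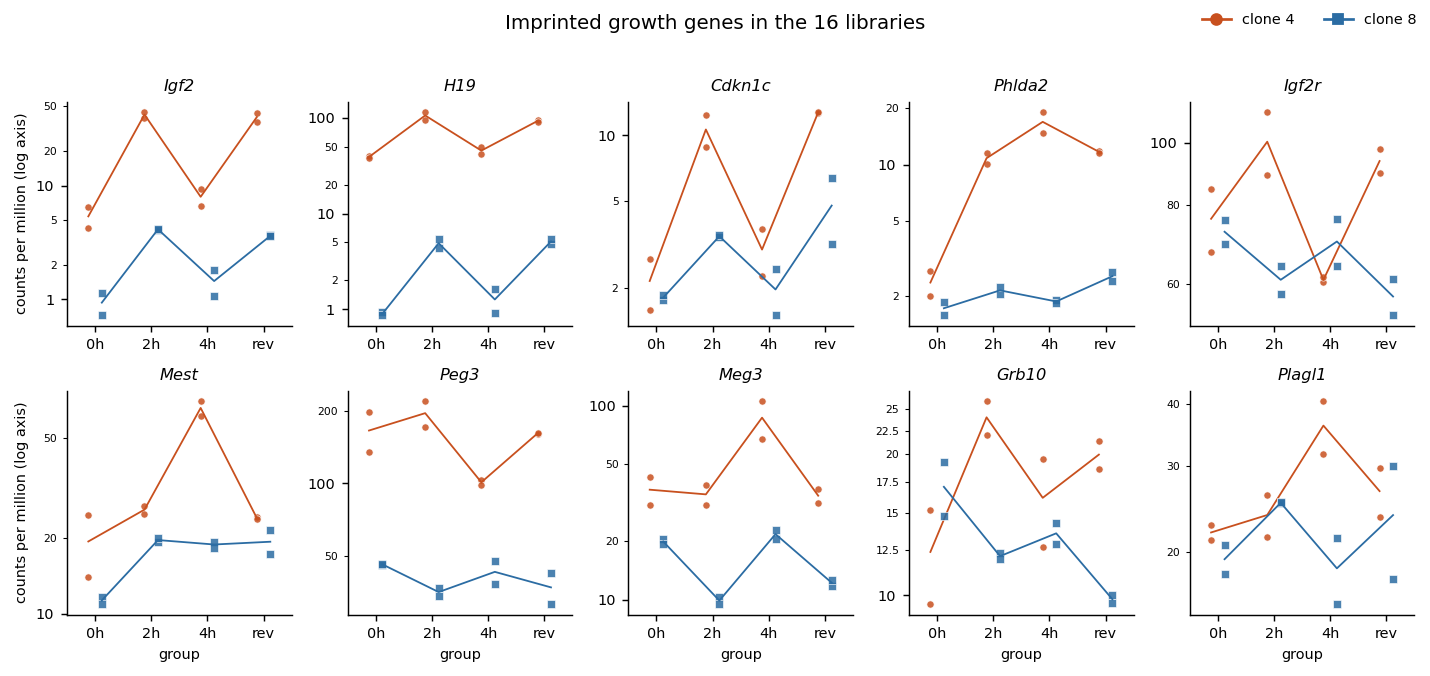
CPM (log axis, its range set for each gene) of the 10 genes in the 4 groups. Each point is a library, circles for clone 4 and squares for clone 8, and lines join the clone means; Igf2, H19 and Cdkn1c are high at 2h and rev in both clones, while Phlda2 and Mest reach their highest values at 4h in clone 4.

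Igf2, H19 and Cdkn1c shared a pattern: high after 2 h of 4OHT, near their starting level after 4 h, and high again after MEK inhibition. In every 2h and rev library each of the 3 was above all 0h and 4h libraries of the same clone. Of all tested genes 144, or 1.13%, were ordered in this way in both clones, and 3 of the 10 imprinted genes were. This order includes the comparisons by which Igf2 and Cdkn1c were chosen, so the count of 3 is a description and nothing is read from it.

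Igf2 (chr7:142650766-142666816, minus strand) encodes insulin-like growth factor 2. In clone 4 it measured 4.195 and 6.52 CPM at 0h, 39.8 and 44.8 at 2h, 9.33 and 6.60 at 4h, and 43.9 and 36.5 at rev. In clone 8 it measured 1.14 and 0.718 CPM at 0h, 4.10 and 4.14 at 2h, 1.81 and 1.07 at 4h, and 3.63 and 3.58 at rev. Both clones thus show the same order of groups, at different heights. Over both clones the log2 difference was 2.73 ± 0.22 (SE) for 2h minus 0h, 0.62 ± 0.26 for 4h minus 0h and 2.66 ± 0.22 for rev minus 0h. It was -2.11 ± 0.20 for 4h minus 2h and 2.03 ± 0.21 for rev minus 4h, the comparisons for which Igf2 was chosen. Counts of Igf2 in clone 8 were low, 11 and 5 at 0h. In the annotation, 62.83% of Igf2's exon length is shared with a same-strand gene model, Gm49394, which was not used here, so these counts may include reads of that model.

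Of the starts shown above for Igf2, the counts do not tell which was used. Igf2os, a noncoding RNA on the opposite strand of the same locus, rose at 2h against 0h by 1.93 ± 0.55 (edgeR adjusted p = 0.0211) and at rev against 0h by 2.17 ± 0.54 (edgeR adjusted p = 0.0159). Its counts were 0 to 27 per library, and it was at 0 in both 0h libraries of clone 8. Whether the counting used strand is not given in the sources used here, so reads of Igf2 and Igf2os cannot be told apart over the 1.71% of Igf2's exon length that they share.

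H19 (chr7:142575529-142578143, minus strand) is the long noncoding RNA read from the opposite parental copy to Igf2. In clone 4 it measured 40.2 and 38.0 CPM at 0h, 96.2 and 116 at 2h, 49.2 and 41.9 at 4h, and 96.2 and 89.7 at rev. Clone 8 held 0.934 and 0.862 CPM at 0h, 4.33 and 5.47 at 2h, 1.61 and 0.919 at 4h, and 4.84 and 5.37 at rev. H19 rose 3.02-fold at 2h against 0h (log2 1.59 ± 0.16, edgeR quasi-likelihood adjusted p = 2.66e-06) and 2.71-fold at rev against 0h (1.44 ± 0.17, edgeR adjusted p = 3.89e-05). At 4h against 0h the log2 difference was 0.26 ± 0.17 (edgeR adjusted p = 0.361), and at rev against 2h it was -0.15 ± 0.15 (edgeR adjusted p = 0.695). The log2 difference was -1.34 ± 0.16 for 4h minus 2h and 1.18 ± 0.16 for rev minus 4h. The 0h libraries enter each comparison against 0h, so the comparisons share those samples.

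Cdkn1c (chr7:143458339-143461050, minus strand) encodes p57, an inhibitor of cyclin-dependent kinases. It measured 1.60 and 2.73 CPM at 0h, 8.82 and 12.4 at 2h, 3.73 and 2.29 at 4h, and 12.6 and 12.8 at rev in clone 4. Clone 8 held 1.76 and 1.87 CPM at 0h, 3.42 and 3.51 at 2h, 1.51 and 2.45 at 4h, and 6.36 and 3.20 at rev. Clone 8 held the same order of groups in a narrower range. The log2 difference was 1.62 ± 0.29 for 2h minus 0h, 0.28 ± 0.34 for 4h minus 0h and 1.95 ± 0.29 for rev minus 0h. It was -1.34 ± 0.28 for 4h minus 2h and 1.67 ± 0.28 for rev minus 4h, the comparisons for which Cdkn1c was chosen. The 30.65% of its exon length that an antisense model, Gm44732, shares belongs to a feature at 0 counts in all libraries. As the strand setting is not known, this does not tell whether reads over the shared part were counted for Cdkn1c.

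The 2h and rev libraries also stood apart from the 0h and 4h libraries over genes at large. With the 10 genes left out, the third principal component of the 500 most variable genes (8.43% of their variance) was positive in all 0h and 4h libraries and negative in all 2h and rev libraries. Levels centred within each clone correlated with it at r = -0.96 for Igf2, -0.82 for H19 and -0.93 for Cdkn1c over the 16 libraries, which share depth and handling. By the labels, 2h and rev cells were both collected 2 h after the last compound was added, 4h cells 4 h after, and 0h cells without one. The part of this component in the 3 genes' values was not tested.

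**Figure D2:**
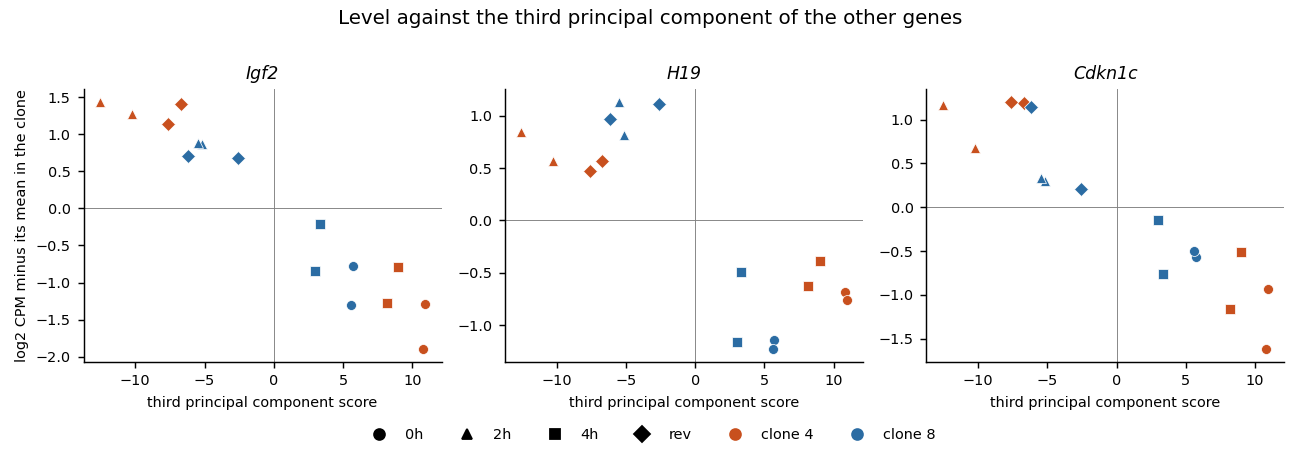
Level of Igf2, H19 and Cdkn1c (log2 CPM minus the mean of the clone) against the score of each library on the third principal component, computed without the 10 genes. Shapes mark groups and colours clones; all 2h and rev libraries lie at negative scores with levels above the clone's mean, all 0h and 4h libraries at positive scores with levels below it.

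Within clones, Igf2 and Cdkn1c correlated at r = 0.92, Igf2 and H19 at 0.87, and H19 and Cdkn1c at 0.75 over 16 libraries. By the same measure among 7864 genes (7865 for Cdkn1c) with a mean of at least 50 counts, the genes most like Igf2 were Selenos (r = 0.96), Stard8 (0.94), Tgoln1 (0.93), Wdr45 (0.93) and Serinc1 (0.93). Selenos, for example, averaged 7.36 CPM at 0h, 13.6 at 2h, 8.59 at 4h and 12.3 at rev in clone 4. Those most like H19 were Selenoi (0.93), Arl2bp (0.93), Plk2 (0.92), Serinc1 (0.90) and Chka (0.90). Those most like Cdkn1c were Nrk (0.97), Trim24 (0.95), Abcb1a (0.94), Klf3 (0.93) and Wdr45 (0.92). All points share library depth and the centring by clone, and the correlations are descriptions of these libraries.

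Phlda2 (chr7:143501545-143503150, minus strand), a neighbour of Cdkn1c in the same imprinted cluster, encodes a pleckstrin homology protein that restrains placental growth. In clone 4 it measured 2.00 and 2.73 CPM at 0h, 10.1 and 11.6 at 2h, 19.2 and 14.7 at 4h, and 11.9 and 11.6 at rev. In clone 8 it stayed between 1.58 and 2.69 CPM in all 8 libraries. Phlda2 rose at 2h against 0h by a log2 difference of 1.37 ± 0.34 (edgeR adjusted p = 0.00898), at 4h against 0h by 1.80 ± 0.34 (edgeR adjusted p = 0.00155) and at rev against 0h by 1.54 ± 0.34 (edgeR adjusted p = 0.00788). In the model with the clones separate the change from 0h to 4h was 2.84 ± 0.25 in clone 4 and 0.11 ± 0.36 in clone 8. Clone 8's change minus clone 4's was -2.74 ± 0.46 at 4h (edgeR adjusted p = 1.33e-04) and -1.87 ± 0.44 at 2h (edgeR adjusted p = 0.00603). Without 0h clone 4 replicate 1 the rises were 1.03 at 2h (edgeR adjusted p = 0.0643) and 1.18 at rev (0.0576), and without 0h clone 4 replicate 2 they were 1.07 (0.0639) and 1.23 (0.0526), so neither was then called. Without 0h clone 8 replicate 1 the clone difference at 2h was -1.70 (edgeR adjusted p = 0.0950).

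**Figure D3:**
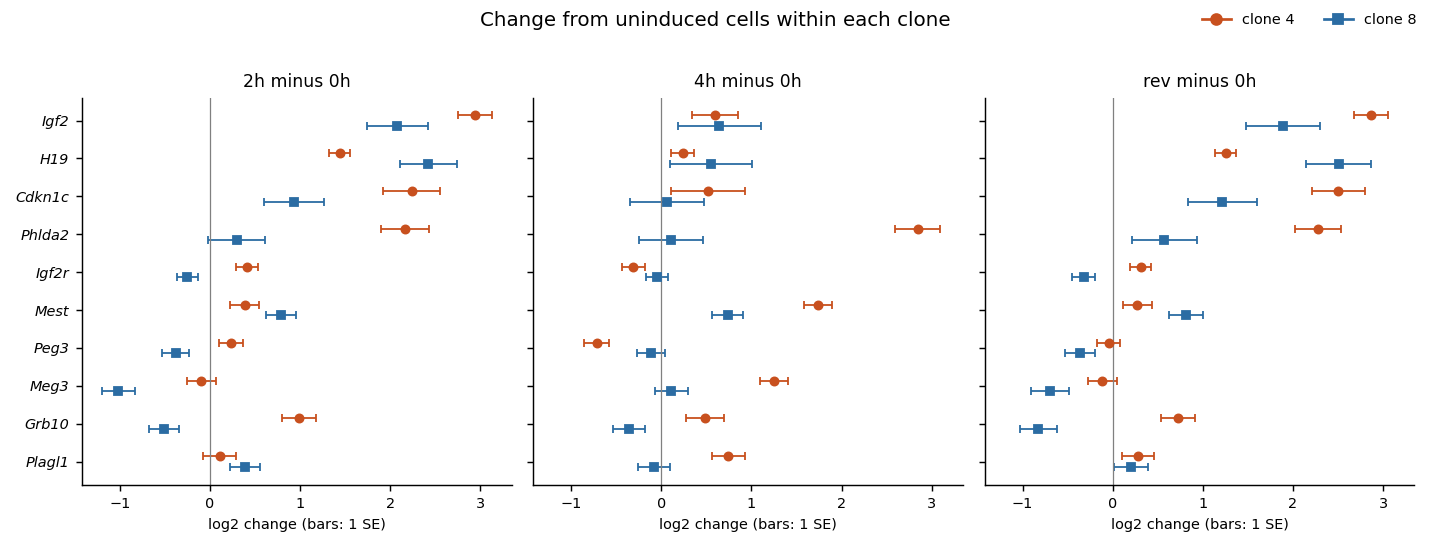
Log2 change of each gene from 0h at 2h, 4h and rev within clone 4 (circles) and clone 8 (squares), with bars of 1 SE from the edgeR fit with a term for each group in each clone. Phlda2 at 4h is 2.84 in clone 4 and 0.11 in clone 8, whereas Igf2, H19 and Cdkn1c lie above 0 at 2h and rev in both clones.

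Mest (chr6:30723547-30748465, plus strand), a paternally read gene for an enzyme of the alpha/beta hydrolase fold, was highest at 4h in clone 4. In that clone it measured 13.98 and 24.9 CPM at 0h, 27.0 and 25.0 at 2h, 70.4 and 61.5 at 4h, and 24.3 and 23.9 at rev. In clone 8 it measured 11.7 and 10.9 CPM at 0h, 19.3 and 20.05 at 2h, 19.4 and 18.4 at 4h, and 17.3 and 21.5 at rev, where the 2h, 4h and rev libraries overlapped and all exceeded 0h. Mest rose 2.52-fold at 4h against 0h (log2 1.33 ± 0.24, edgeR adjusted p = 9.64e-04), while the differences of 0.61 ± 0.24 at 2h and 0.51 ± 0.25 at rev were not called (edgeR adjusted p = 0.0798 and 0.187). In clone 8 fitted alone Mest rose at 2h (0.79, edgeR adjusted p = 2.69e-04) and rev (0.81, edgeR adjusted p = 0.00136), and with no filter on low counts both were called over the 2 clones. The clone difference in the change from 0h to 4h, clone 8 minus clone 4, was -1.002 ± 0.24 (edgeR adjusted p = 0.00626). That clone difference was -0.68 without 0h clone 4 replicate 1 (edgeR adjusted p = 0.0601), -0.93 without 0h clone 8 replicate 1 (0.0787) and -0.89 without 4h clone 4 replicate 1 (0.0686). Copg2, which shares 23.12% of Mest's exon length on the opposite strand, had a log2 difference of -0.14 ± 0.15 at 4h against 0h (edgeR adjusted p = 0.618).

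Meg3 (chr12:109541001-109571726, plus strand) is a maternally read long noncoding RNA at the start of a cluster that also holds Rian, Mirg and the paternally read Rtl1 and Dio3. In clone 4 it measured 31.0 and 42.9 CPM at 0h, 38.9 and 31.0 at 2h, 106 and 67.6 at 4h, and 31.6 and 37.2 at rev. Clone 8 held 20.5 and 19.4 CPM at 0h, 10.3 and 9.46 at 2h, 20.6 and 23.0 at 4h, and 11.8 and 12.7 at rev. The 4h libraries were thus the highest in clone 4, and the 2h and rev libraries the lowest in clone 8. Meg3 rose at 4h against 0h by 0.71 ± 0.19 (edgeR adjusted p = 0.0160). Its differences at 2h (-0.54 ± 0.19) and rev (-0.42 ± 0.20) were not called (edgeR adjusted p = 0.0589 and 0.188). DESeq2 called that at 2h (-0.56, adjusted p = 0.0401). With no filter on low counts those at 2h (-0.52, edgeR adjusted p = 0.0018) and rev (-0.41, 0.0421) were called. That at 2h was also called without replicate 1 of 0h clone 4, of 2h clone 4 or of 4h in either clone. In clone 8 fitted alone Meg3 fell at 2h by 1.02 (edgeR adjusted p = 1.48e-05), and its difference at 4h was 0.11 (edgeR adjusted p = 0.659). Its difference at rev in that fit was -0.70 (edgeR adjusted p = 0.00466). With library totals the difference at 4h over both clones was 0.63 (edgeR adjusted p = 0.161). The clone difference was -0.92 ± 0.25 at 2h (edgeR adjusted p = 0.0164) and -1.14 ± 0.24 at 4h (edgeR adjusted p = 0.00177). The rise at 4h was 0.51 without 0h clone 4 replicate 1 (edgeR adjusted p = 0.0858), 0.65 without 0h clone 4 replicate 2 (0.0539) and 0.47 without 4h clone 4 replicate 1 (0.0891). The clone difference at 2h was -0.72 without 0h clone 4 replicate 1 (edgeR adjusted p = 0.0730), -0.86 without 0h clone 8 replicate 1 (0.0953), -0.75 without 2h clone 4 replicate 1 (0.0768) and -0.86 without 2h clone 8 replicate 2 (0.0707). At 4h it was -0.74 without 4h clone 4 replicate 1 (edgeR adjusted p = 0.0901).

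Of the 5 neighbours of Meg3 considered, 4 were tested, Dlk1 having at most 15 counts. At 4h against 0h, Rian rose by 0.62 ± 0.16 (edgeR adjusted p = 0.0167), Mirg by 0.90 ± 0.26 (0.0255) and Rtl1 by 1.07 ± 0.32 (0.0321). Rian, a host of small nucleolar RNAs, measured 42.0 and 50.5 CPM at 0h and 116 and 68.1 at 4h in clone 4, against 29.5 and 24.3 at 0h and 30.8 and 30.02 at 4h in clone 8. Its clone difference at 4h was -0.86 ± 0.23 (edgeR adjusted p = 0.0216). Dio3, a thyroid hormone deiodinase at the far end of the cluster, fell by 0.99 ± 0.22 at 2h against 0h (edgeR adjusted p = 0.00424) and by 0.74 ± 0.22 at 4h (edgeR adjusted p = 0.0329). Rtl1 is read on the strand opposite to noncoding RNA of this cluster, so without known strand its counts are uncertain.

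**Figure D4:**
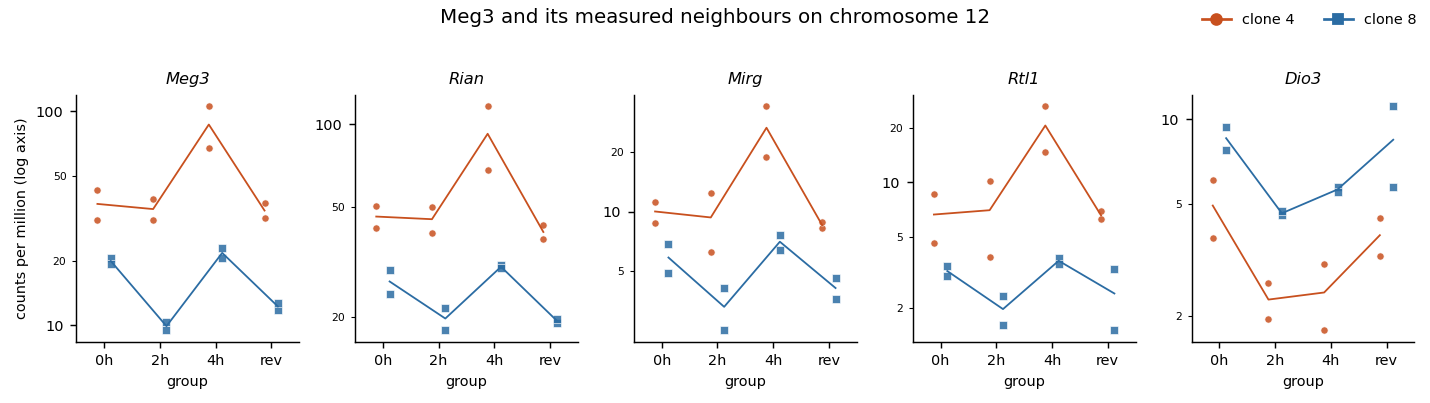
CPM (log axis, its range set for each gene) of Meg3 and its 4 tested neighbours in the 4 groups. Points are libraries, circles for clone 4 and squares for clone 8, and lines join clone means; Meg3, Rian, Mirg and Rtl1 peak at 4h in clone 4, and Dio3 is higher in clone 8 than in clone 4.

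Igf2r (chr17:12682406-12769664, minus strand) encodes the receptor that clears IGF2, and Grb10 (chr11:11930508-12038683, minus strand) an adaptor that restrains insulin and IGF receptor signalling. Over both clones neither passed the test in any comparison against 0h, and the clones moved apart. Igf2r measured 84.7 and 67.3 CPM at 0h and 89.0 and 112 at 2h in clone 4, against 75.6 and 69.4 at 0h and 57.9 and 64.0 at 2h in clone 8. At 4h it measured 60.4 and 61.5 CPM in clone 4 and 76.0 and 64.0 in clone 8, and at rev 89.6 and 97.8 in clone 4 and 53.6 and 61.1 in clone 8. The clone difference for Igf2r was -0.66 ± 0.17 from 0h to 2h (edgeR adjusted p = 0.0115) and -0.90 ± 0.18 from 4h to rev (edgeR adjusted p = 6.16e-04). The 2h value was -0.48 without 0h clone 4 replicate 2 (edgeR adjusted p = 0.138), -0.57 without 0h clone 8 replicate 1 (0.0958), -0.49 without 2h clone 4 replicate 2 (0.108) and -0.57 without 2h clone 8 replicate 1 (0.0794).

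Grb10 measured 15.2 and 9.55 CPM at 0h, 26.1 and 22.0 at 2h, 19.6 and 12.7 at 4h, and 21.3 and 18.6 at rev in clone 4. In clone 8 it measured 19.3 and 14.8 CPM at 0h, 12.3 and 11.9 at 2h, 12.9 and 14.2 at 4h, and 9.99 and 9.59 at rev. The 2h and rev libraries were above 0h in clone 4 and below it in clone 8. The change from 0h to 2h was 0.99 ± 0.19 in clone 4 and -0.51 ± 0.17 in clone 8, a clone difference of -1.504 ± 0.25 (edgeR adjusted p = 2.00e-04). Fitted by clone, Grb10 rose at 2h in clone 4 (0.98, edgeR adjusted p = 0.00110) and fell in clone 8 (-0.51, edgeR adjusted p = 0.0147), and at rev it rose in clone 4 (0.72, edgeR adjusted p = 0.0150) and fell in clone 8 (-0.83, edgeR adjusted p = 0.00418). Of its 3 neighbours, all tested, Ddc rose at 4h against 0h by 0.66 ± 0.15 (edgeR adjusted p = 0.00599). Averaged over the groups all 3 were higher in clone 8, where 43.3% of all tested genes were called in either direction. Ddc was higher by 1.24 ± 0.11 (edgeR adjusted p = 2.01e-11), Cobl by 1.43 ± 0.07 (4.81e-17) and Fignl1 by 0.26 ± 0.06 (4.93e-04). Grb10 itself was lower in clone 8 (-0.46 ± 0.10).

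Peg3 (chr7:6703892-6730431, minus strand) and Plagl1 (chr10:13060504-13131694, plus strand) encode zinc finger proteins, and Plagl1 is known to regulate other imprinted genes. Peg3 ranged from 98.8 to 219.6 CPM in clone 4 and from 31.6 to 47.6 in clone 8. At 4h it was at 103 and 98.8 CPM in clone 4, below its other 6 libraries, and its difference from 0h over both clones was -0.40 ± 0.18 (edgeR adjusted p = 0.167). In clone 4 fitted alone Peg3 fell at 4h by 0.72 (edgeR adjusted p = 5.21e-04). The clone difference for Peg3 from 4h to rev was -0.92 ± 0.21 (edgeR adjusted p = 0.00335). Without rev clone 8 replicate 2 it was -0.67 (edgeR adjusted p = 0.0857). Plagl1 measured 40.7 and 31.7 CPM at 4h in clone 4, above its other 6 libraries of 21.2 to 29.7, and 15.7 to 29.97 in clone 8. Its clone differences were -0.83 ± 0.25 from 0h to 4h (edgeR adjusted p = 0.0477) and 0.75 ± 0.25 from 4h to rev (edgeR adjusted p = 0.0439). With DESeq2 they were -0.81 (DESeq2 adjusted p = 0.142) and 0.79 (0.0850), so neither was called. Neither was called with a replicate block (-0.84, edgeR adjusted p = 0.0692, and 0.76, 0.0602) or with library totals (-0.49, 0.648, and 0.05, 0.929). The call from 0h to 4h was lost without any one 0h library, 2h clone 8 library or rev clone 4 library, and without replicate 1 of 4h in either clone (at most edgeR adjusted p = 0.416, without 4h clone 4 replicate 1). The call from 4h to rev was lost without either 0h clone 8 library, or without replicate 1 of 2h clone 8, of 4h in either clone or of rev in either clone (at most edgeR adjusted p = 0.322, without 4h clone 4 replicate 1). Of the neighbours of Peg3, 2 of 5 were tested, and Zfp264 fell at 4h against 0h by 0.79 ± 0.18 (edgeR adjusted p = 0.00684).

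In counts, 2 of the 8 genes tested were called at 2h against 0h, both higher (H19 and Phlda2), where 17% of all tested genes were called and 9.49% were called higher. At 4h against 0h 3 of 8 were called, all higher (Mest, Phlda2 and Meg3), against 12.9% of all genes called and 7.35% called higher. At rev against 0h 2 of 8 were called, both higher (H19 and Phlda2), against 10.5% and 5.51%. At rev against 2h edgeR called 0 of 8, with 0 at an unadjusted p under 0.05 and 0 by DESeq2, and 1.78% of all genes were called. The median log2 difference of the 10 genes was 0.44 at 2h, 0.32 at 4h and 0.38 at rev against 0h, where the median of all tested genes was 0.00, -0.01 and 0.00.

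All 10 genes were lower in clone 8 than in clone 4 when the 4 groups were averaged, and all 10 were called. That comparison called 43.3% of all tested genes, and 21.6% of all tested genes were called lower in clone 8. The median log2 difference of the 10 was -1.31, against -0.01 for all tested genes. H19 was 27.3-fold lower in clone 8 (log2 -4.77 ± 0.09, edgeR adjusted p = 1.26e-28), with a highest clone 8 library of 5.47 CPM and a lowest clone 4 library of 38.0. Igf2 was 7.68-fold lower (-2.94 ± 0.14, edgeR adjusted p = 4.06e-18), Phlda2 4.11-fold (-2.04 ± 0.15, adjusted p = 3.33e-13), Peg3 3.80-fold (-1.93 ± 0.07, adjusted p = 2.79e-20) and Meg3 2.94-fold (-1.56 ± 0.09, adjusted p = 4.97e-16). Every clone 4 library was above every clone 8 library for 4 of the 10, Igf2, H19, Peg3 and Meg3. The share of all tested genes ordered in this way was not computed, so nothing is read from that count.

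The smaller differences were those of Cdkn1c (-1.06 ± 0.17, edgeR adjusted p = 6.38e-06), Mest (-0.82 ± 0.08, adjusted p = 2.85e-10), Grb10 (-0.46 ± 0.10, adjusted p = 1.73e-04), Plagl1 (-0.35 ± 0.09, adjusted p = 0.00144) and Igf2r (-0.31 ± 0.06, adjusted p = 7.40e-05). The averages hide differences between groups. At 0h, before ERK induction, clone 8 minus clone 4 was -5.41 ± 0.23 for H19 and -2.49 ± 0.37 for Igf2, but -0.46 ± 0.37 for Phlda2, -0.30 ± 0.43 for Cdkn1c and 0.51 ± 0.20 for Grb10. Scaled by library totals instead of TMM, Igf2r (-0.23, edgeR adjusted p = 0.209) and Plagl1 (-0.27, 0.156) were no longer called. In bulk RNA, fewer cells expressing a gene and less RNA per cell cannot be told apart.

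**Figure D5:**
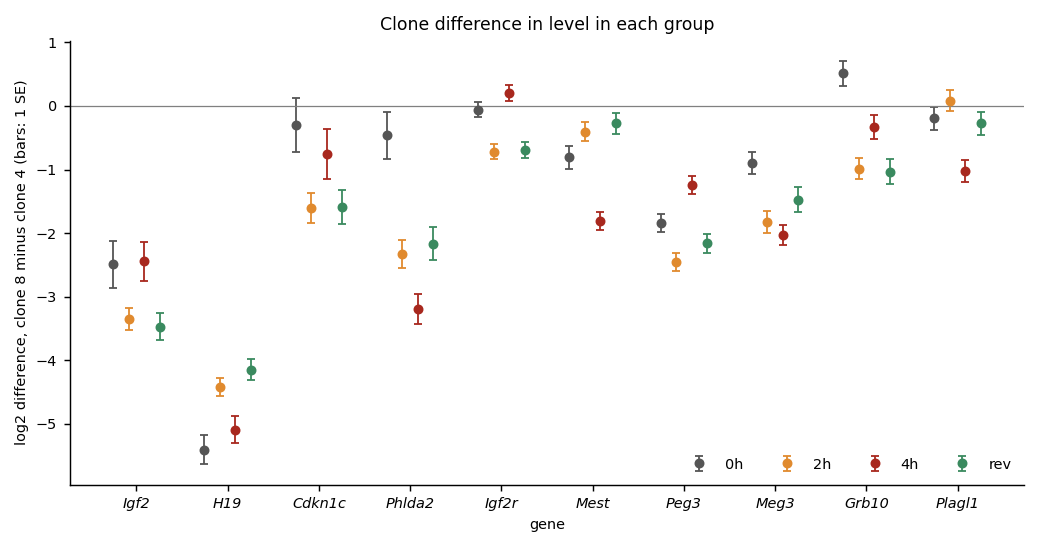
Log2 difference between clone 8 and clone 4 for each gene at 0h, 2h, 4h and rev, with bars of 1 SE from the edgeR fit with a term for each group in each clone. H19 and Igf2 lie below -2 in every group, and Phlda2 goes from -0.46 at 0h to -3.20 at 4h.

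The test of whether the clones changed differently called 4 of the 10 genes for 2h minus 0h (Phlda2, Igf2r, Meg3 and Grb10), where 7.94% of all genes were called and 5.01% were called lower in clone 8. For 4h minus 0h it called 4 (Phlda2, Mest, Meg3 and Plagl1), against 5.72% and 3.69%. All 8 of these values were lower in clone 8. For rev minus 4h it called 4, Igf2r and Peg3 lower and Mest (1.54 ± 0.22, edgeR adjusted p = 1.01e-05) and Plagl1 higher in clone 8, against 13.2% of all genes. Values at rev and 4h were in view when the genes were chosen, so this count is a description and nothing is read from it. Igf2, H19 and Cdkn1c were called in neither test against 0h. Their clone differences in 2h minus 0h were -0.86 ± 0.48, 0.98 ± 0.37 and -1.31 ± 0.49 (edgeR adjusted p = 0.283, 0.0962 and 0.0978). When library totals replaced TMM, the median log2 value of all genes stood at 0.56 for the clone difference in 2h minus 0h, 0 of the 10 genes were called there and 1 in 4h minus 0h, and for rev minus 4h, where that median stood at -0.67, Mest (0.88, edgeR adjusted p = 0.0974) and Plagl1 (0.05, 0.929) lost their calls and Grb10 gained one (-1.39, 0.0144). The ERK readouts moved with the clones too: Dusp6 averaged 77.0 CPM at 4h in clone 4 and 21.1 in clone 8, and Spry4 228 and 54.7. All 3 readouts had a smaller change at 4h in clone 8, and the part of this in the genes' clone differences was not tested.

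Trophoblast, where several of these genes are highly expressed, was examined as another cell type that the cultures could hold. Of 7 markers 5 were tested, and Eomes, Hand1 and Krt7 rose at 2h and at rev against 0h, while Gata3, Hand1, Krt7 and Tfap2c were lower in clone 8. At 4h against 0h Eomes rose and Tfap2c fell. The 7 markers summed to 62.8 to 75.7 CPM at 0h, 83.4 to 86.7 at 2h, 57.1 to 59.7 at 4h and 66.3 to 66.6 at rev in clone 4. In clone 8 they summed to 50.3 to 57.8, 33.7 to 34.9, 42.1 to 45.5 and 40.04 to 51.5 CPM. Tfap2c reached 65.4 CPM in clone 4 and 51.7 in clone 8, and no other of the 7 exceeded the 16.7 CPM of Gata3 in clone 4. The sums thus depend largely on Tfap2c and are not a measure of trophoblast cells. Krt7 reached 4.80 CPM in clone 4 and 0.908 in clone 8. The defining markers Cdx2 and Elf5 were at 0 in 5 and 3 of the 16 libraries and had at most 7 and 4 counts. Of 7 primitive endoderm markers 3 were tested, and Dab2 rose at 2h and rev and Pdgfra at rev; the 7 summed to 3.32 to 9.99 CPM. The part of these markers in the results was not tested.

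Among 65 other imprinted genes considered, 41 were tested. At 2h against 0h 2 rose and 2 fell, at 4h 7 rose and 4 fell, and at rev 1 rose and 3 fell, where 17%, 12.9% and 10.5% of all tested genes were called in either direction. The counts at 2h and rev are thus not above the share over all genes. Their median log2 differences were -0.09, -0.08 and -0.09. Peg10, a gene derived from a retrotransposon and needed for the placenta, rose at 2h (1.65 ± 0.16, edgeR adjusted p = 1.61e-06), 4h (0.99 ± 0.16, 4.77e-04) and rev (1.54 ± 0.16, 1.55e-05). It was also lower in clone 8 (-2.79 ± 0.08, edgeR adjusted p = 2.07e-24). Peg12 fell at 4h by 1.01 ± 0.27 (edgeR adjusted p = 0.0188). Between the clones 11 of the 41 were higher and 15 lower in clone 8. That comparison called 43.3% of all tested genes, and 21.6% of all tested genes were called lower. Ampd3 was among the 11, higher by 1.71 ± 0.21 (edgeR adjusted p = 2.20e-08). In the cluster of Cdkn1c and Phlda2, the noncoding RNA Kcnq1ot1 was lower in clone 8 (-1.12 ± 0.10, edgeR adjusted p = 1.46e-11) and differed from 0h by -0.20 at 2h, -0.18 at 4h and -0.47 at rev, none of them called. Airn, the noncoding RNA antisense to Igf2r, had at most 4 counts and was not tested.

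In the pathway that IGF2 acts through, 30 of 36 genes were tested. At 2h against 0h 3 rose and 1 fell, at 4h 8 rose and 3 fell, and at rev 2 rose and 1 fell, beside 17%, 12.9% and 10.5% of all tested genes called. The counts at 2h and rev are not above those shares. Pdpk1, the kinase that activates AKT, rose by 0.85 ± 0.10 at 2h (edgeR adjusted p = 2.04e-05) and 1.06 ± 0.10 at 4h (edgeR adjusted p = 1.43e-06). Irs2, an adaptor of the insulin and IGF receptors, rose by 0.61 ± 0.18 at 2h (edgeR adjusted p = 0.0271) and 0.92 ± 0.18 at 4h (0.00253). The adaptor Grb7 fell by 1.02 ± 0.26 at 2h (edgeR adjusted p = 0.0112) and the IGF binding protein Igfbp5 by 1.48 ± 0.39 at 4h (0.0158). Between the clones 5 were higher and 12 lower in clone 8, beside 43.3% of all tested genes called and 21.6% called lower. Igfbp7 was 2.999 ± 0.20 higher (edgeR adjusted p = 2.86e-14), Igfbp4 1.12 ± 0.30 higher (0.00245) and Irs2 was lower (-1.12 ± 0.08, 5.61e-14). The median log2 difference of the 30 genes was 0.11 at 2h, 0.09 at 4h and 0.03 at rev against 0h.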

How the data were processed

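The authors deposited 1 table of read counts per gene, whole numbers with no normalization, for 52636 Ensembl identifiers in 16 libraries. Per the submitters' processing notes, bcl2fastq 2.19.1, STAR 2.5.3a and the build mm10 were used; the counting program, annotation and strand setting are not given in the sources used here. Symbols and 1-based positions came from GENCODE M21 (GRCm38), in which 52489 identifiers matched and 147 did not. A filter on low counts (filterByExpr with the groups, at least 10 counts and a total of 15) left 12742 genes, scaled with TMM. edgeR 4.0.16 (R 4.3.3) fitted the quasi-likelihood model of group and clone, and one with a term for each group in each clone for clone comparisons, over all 16 libraries. P-values are two-sided and Benjamini-Hochberg adjusted over all tested genes, calls are at an adjusted p under 0.05, and SE is the log2 difference divided by the square root of F. The procedure was tested on simulated data. DESeq2 1.42.0 was an alternative. Other alternatives were library totals, no filter, no clone term, each clone alone, a replicate block, and leaving out each library.

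The 10 genes, the gene lists and the tests were chosen with earlier results of these data known. Named beside the 10 are the 5 genes most correlated with each of Igf2, H19 and Cdkn1c, their imprinted neighbours, and at most the 3 largest calls per list and comparison. Library totals of 4.31 to 10.44 M limit precision for genes with few counts.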

Additional observations from a re-analysis of the deposited data

Results flagged for a closer look

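Tests of whether clone 8 changed differently from clone 4 had 2 libraries per clone and group (edgeR adjusted p, log2 scale). Of the 10 genes, 4 passed from 0h to 2h and 4 from 0h to 4h. The count from 4h to rev was also 4, and nothing is read from it. Of all tested genes, 7.94% were called from 0h to 2h, 5.72% from 0h to 4h and 13.2% from 4h to rev. From 0h to 2h clone 8 minus clone 4 was -1.87 for Phlda2 (adjusted p = 0.00603), -1.504 for Grb10 (2.00e-04), -0.92 for Meg3 (0.0164) and -0.66 for Igf2r (0.0115). From 0h to 4h it was -2.74 for Phlda2 (adjusted p = 1.33e-04), -1.14 for Meg3 (0.00177), -1.002 for Mest (0.00626) and -0.83 for Plagl1 (0.0477). From 4h to rev it was 1.54 for Mest (adjusted p = 1.01e-05), 0.75 for Plagl1 (0.0439), -0.92 for Peg3 (0.00335) and -0.90 for Igf2r (6.16e-04). Values at rev and 4h were in view at the choice of the genes, so the p-values from 4h to rev may not be independent of it. Mest changed by -1.46 from 4h to rev in clone 4 and by 0.08 in clone 8. Each Plagl1 call was lost with library totals, with DESeq2 and with a replicate block.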

How the results depend on the processing

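Counts of calls among the 10 genes changed with the clone term, the filter, each clone alone, single libraries and, for clone differences, the scaling. The share of all genes called under each alternative is not given here. The counts below thus describe these genes only, and nothing is read from their changes. Without the clone term 0 were called at 2h, 1 at 4h and 0 at rev against 0h. With no filter 4 were called at 2h and 4 at rev. In clone 4 alone 4 were called at 2h and 5 at 4h, and in clone 8 alone 5 at 2h, 1 at 4h and 4 at rev. Grb10 turned direction, with 0.72 at rev in clone 4 alone and -0.51 at 2h in clone 8 alone. Clone differences from 0h to 2h numbered 2 at an adjusted p under 0.01 and 0 with library totals, and those from 0h to 4h 1 with library totals; the cause was not tested. With library totals the median log2 value of all genes stood at -0.24 for rev against 0h and at -0.67 for the clone difference in rev minus 4h. Leaving out each library gave 1 to 4 calls at 2h, 2 to 4 at 4h and 1 to 2 at rev against 0h, 1 to 5 and 1 to 5 for the clone differences from 0h to 2h and 4h, and 3 to 5 for rev minus 4h. Without 0h clone 4 replicate 2 there was 1 call at 2h, and without 4h clone 4 replicate 1 there were 4. Same-numbered libraries did not deviate together on average (mean r = -0.01 over 24 pairs). With 2 libraries per clone and group the deviations mirror each other, so each r enters more than once. That mean cannot exclude a shared culture or batch, so whether the numbers pair libraries is not known. With a replicate block the calls were 2, 3, 2 and 0 for 2h, 4h and rev against 0h and rev against 2h. They were 9 between clones, and 5, 3 and 4 for the clone differences.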

Other observations

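Of 13 genes for the upkeep of imprints, all tested, 2 rose and 1 fell at 2h against 0h, 4 rose and 0 fell at 4h, and 1 rose and 1 fell at rev, beside 17%, 12.9% and 10.5% of all tested genes called. Ctcf, the insulator protein that binds the control region between Igf2 and H19, rose by 0.39 ± 0.08 at 2h (edgeR adjusted p = 0.00314), 0.34 ± 0.08 at 4h (0.00924) and 0.30 ± 0.08 at rev (0.0223). Zfp57, which protects methylated imprints, rose by 0.49 ± 0.12 at 4h (edgeR adjusted p = 0.0106). Dppa3, a maternal factor that guards methylation, had a clone difference, clone 8 minus clone 4, of -1.78 ± 0.23 from 4h to rev (edgeR adjusted p = 1.39e-06).

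Among the other cyclin-dependent kinase inhibitors, 5 of 6 were tested. Cdkn1a, encoding p21, rose by 0.72 ± 0.16 at 2h (edgeR adjusted p = 0.00555) and 0.86 ± 0.17 at rev against 0h (0.00320). Cdkn1b, encoding p27, fell by 0.60 ± 0.15 at 2h (edgeR adjusted p = 0.00949), 0.89 ± 0.15 at 4h (8.02e-04) and 0.60 ± 0.15 at rev (0.0163), and was 1.48 ± 0.06 higher in clone 8 (1.18e-19). Cdkn2d fell by 0.68 ± 0.23 at 2h (edgeR adjusted p = 0.0444).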
